A study of Mus musculus with 18 samples.

Results

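The genes Cd274, Cd40, Cd28, Pdcd1 and Slamf8 encode molecules through which macrophages and lymphocytes give each other activating or restraining signals. They were picked by gene name, which gave 5 of the 5455 named genes and 8 of the 7315 transcript or locus entries that the authors' deposited table lists between the 6 groups. Cd40 has 4 transcript entries and the other members have 1 each. RAW264.7 is a mouse macrophage-like cell line. Parental RAW264.7 cells were left untreated or given doxycycline at 100 ng/mL. RAW264.7 cells with a lentiviral construct (pINDUCER20-mCITED1), from which doxycycline turns on mouse CITED1, a transcriptional co-regulator, were untreated or received doxycycline at 100 ng/mL, interferon-gamma at 200 U/mL or the combination of these. Each group had 3 samples. Parental cells with interferon-gamma are not among these groups, so every response to interferon-gamma described here is one of construct cells. The duration of treatment, and whether the construct cells are 1 clone or a mixed population, are not stated in the labels.

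CD28 is the receptor on T cells for the B7 ligands CD80 and CD86, and its engagement together with the T cell receptor permits full T cell activation. PD-1, the product of Pdcd1, is an inhibitory receptor of the same family, and PD-L1, the product of Cd274, is its ligand on antigen-presenting cells, macrophages and many tumours. CD40 is a TNF receptor family member on macrophages, dendritic cells and B cells that receives help from CD40 ligand on T cells and signals through TRAF adaptors to NF-kB. SLAMF8 is a SLAM family receptor of myeloid cells. Interferon-gamma signals through the receptor-bound kinases JAK1 and JAK2, and PD-L1 and CD40 are textbook targets of it in macrophages.

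For each entry and pair of groups the table gives a fold change, the FPKM of both groups added together and a q-value (an adjusted p), with no value per sample. FPKM is a fragment count scaled by transcript length and library size. No SD, no depth and no overlap of samples can therefore be given, and a call is the authors' own: a listed fold of at least 2 with a q of 0.05 or less. Group levels were rebuilt from fold and summed FPKM. Of the members, 56 rows were listed over the 15 pairs of groups, and 45 of them carried the table's smallest q of 0.000387. The other 11 reached a q of at most 0.00939. Of all rows between the 6 groups 71.8% carried the smallest q. It is a value shared by most rows and does not single out the members. For the members, levels rebuilt from more than 1 pair differed by at most 0.276%, which measures rounding and not the spread of samples. A missing row can mean a difference under 2-fold, a q above 0.05 or a gene that the authors did not test.

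Cited1, the induced gene, stood at 0.703 rebuilt FPKM in untreated construct cells, 168 with doxycycline, 11.5 with interferon-gamma and 86.7 with both. Cited1 thus rose with the inducer in both states. The rise in the authors' deposited table was 239-fold in unstimulated cells and 7.55-fold with interferon-gamma. The interferon-gamma group without doxycycline held more Cited1 RNA than untreated construct cells, and is not a group without Cited1. Of 10 macrophage markers 6 are listed in some pair, with Adgre1, Itgam, Spi1 and Cd68 at 13.9, 44.0, 151 and 661 rebuilt FPKM in construct cells with doxycycline. They moved in both directions there when interferon-gamma was added, Adgre1 to 5.03, Itgam to 20.1 and Cd68 to 255 as falls, and Spi1 to 350 and Fcgr1 from 15.5 to 274 as rises. With interferon-gamma alone Fcgr1, from 14.1 to 87.5, was the macrophage marker called. Of 12 T cell markers 3 are listed, and these are Cd28, Pdcd1 and the kinase gene Lck. The defining T cell genes Cd3e, Cd3d, Cd3g, Cd4 and Cd8a have no row, and none of the 5 B cell or 4 NK cell markers has one. Lck was higher with interferon-gamma alone, at 0.695 and 2.61 rebuilt FPKM, a rise of 3.76-fold in the authors' deposited table. Of 7 dendritic cell markers 4 are listed, and with interferon-gamma alone all 4 were higher: Itgax went from 2.04 to 24.2 rebuilt FPKM, Xcr1 from 0.0430 to 6.61, Clec9a from 0.0437 to 80.4 and Zbtb46 from 0.183 to 0.577. With interferon-gamma in doxycycline-treated cells Itgax went from 3.73 to 58.6 and Xcr1 from 0.0360 to 17.7. Clec9a and Zbtb46 have no row in that comparison. Whether other cells had a part in the members' values was not tested.

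The 4 Cd40 entries differ in the exons they use, which matters because the entry with the highest level is not the full-length form. In the GENCODE M21 annotation (GRCm38) Cd40-201 (ENSMUST00000017799) has 9 exons, 2986 bases and a coding length of 867 bases. Cd40-203 (ENSMUST00000081310), 668 bases long, leaves out exon 6, whose 62 bases are not a multiple of 3, and has a coding length of 609 bases. Cd40-202 (ENSMUST00000073707) leaves out exon 7, whose 87 bases hold most of the code for the membrane-spanning segment, and has a coding length of 780 bases. Cd40-207 (ENSMUST00000184221) keeps the 101-base intron after exon 7 and is annotated as a target of nonsense-mediated decay. The exons that tell these entries apart lie on the plus strand at chr2:165066503-165066564 and chr2:165069629-165069715 and read as follows, with no part in capitals.
Cd40 exon 6, absent from Cd40-203: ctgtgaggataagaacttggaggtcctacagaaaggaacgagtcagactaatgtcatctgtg
Cd40 exon 7, absent from Cd40-202: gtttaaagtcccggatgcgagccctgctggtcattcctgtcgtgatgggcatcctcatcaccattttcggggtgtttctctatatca

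Promoter sequence from RefSeq (GRCm38.p6) was matched for 3 of the 5 members, Cd274, Pdcd1 and Slamf8. The 250 bases before the annotated start are shown for Slamf8 and Cd274, the matched members with the largest interferon-gamma folds. They were searched on both strands for ISRE, the motif of interferon regulatory factors (GAAA, any 2 bases, GAAA), and for the kappa B motif of NF-kB. The Slamf8 window on the minus strand, chr1:172590569-172590818, holds 1 ISRE match on its reverse strand, given in capitals, which begins at position -15 from the start. The Cd274 window on the plus strand, chr19:29367188-29367437, and the Pdcd1 window hold neither motif in these letters. Of all 32851 RefSeq promoter windows of this length, 2.98% hold an ISRE match and 7.25% a kappa B match. A further motif that was searched is not reported here by name. It had no match in the windows of these 3 members, and 7.02% of all windows hold one. A match describes letters and shows no binding.
Slamf8 promoter: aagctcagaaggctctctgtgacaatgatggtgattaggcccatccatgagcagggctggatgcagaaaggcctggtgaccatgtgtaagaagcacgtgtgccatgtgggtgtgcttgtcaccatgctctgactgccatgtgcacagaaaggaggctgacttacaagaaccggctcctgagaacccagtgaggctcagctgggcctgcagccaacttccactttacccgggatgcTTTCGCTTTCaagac
Cd274 promoter: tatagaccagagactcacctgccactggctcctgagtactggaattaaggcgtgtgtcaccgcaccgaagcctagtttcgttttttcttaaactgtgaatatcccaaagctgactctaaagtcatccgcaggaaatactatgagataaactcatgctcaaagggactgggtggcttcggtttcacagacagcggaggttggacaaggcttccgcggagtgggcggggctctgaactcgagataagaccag

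Interferon-gamma raised 4 of the 5 members in construct cells, without and with doxycycline: Cd274, Cd40, Pdcd1 and Slamf8. Of the 5455 named genes with a row in any pair, 25.7% were called higher and 24.5% lower with interferon-gamma alone, and 33.7% higher and 34% lower with interferon-gamma in doxycycline-treated cells. In these bulk samples more cells that express a gene and more RNA per cell cannot be told apart. The 4 were far apart in size: Slamf8 ranked at 7 of the 1404 genes called higher without doxycycline and at 1 of the 1837 called higher with it, Cd274 at 19 and 23, Cd40 at 28 and 14, and Pdcd1 at 301 and 387. Members were chosen with such results known, so these counts and ranks describe them and test nothing.

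**Figure D1:**
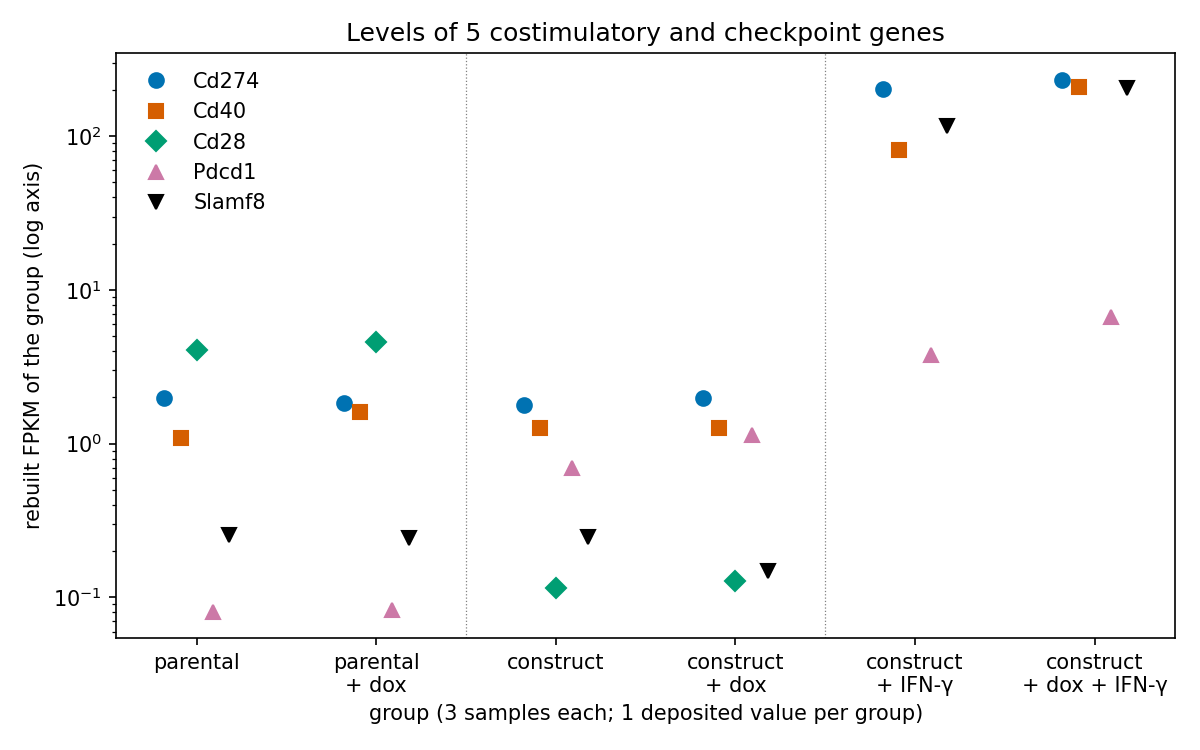
Rebuilt FPKM (log axis) of the 5 genes in the 6 groups, with Cd40 shown by its entry Cd40-203. Each point is 1 deposited group value without error bars, and the small sideways shifts only separate points. Cd274, Cd40 and Slamf8 rise from at most 2.00 to at least 81.3, Pdcd1 is higher in construct than in parental cells and again with interferon-gamma, and Cd28 has values in the 4 unstimulated groups only.

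Cd274, the PD-L1 gene, lay at 1.97 rebuilt FPKM in untreated parental cells, 1.85 in parental cells with doxycycline, 1.78 in untreated construct cells and 2.00 in construct cells with doxycycline. With interferon-gamma it reached 203, and with both treatments 233. The 4 unstimulated groups thus stood within 1.12-fold of each other and far below both stimulated groups. In the authors' deposited table Cd274 rose 114-fold without doxycycline and 117-fold with it (q = 0.000387 for each). All 8 pairs of a stimulated with an unstimulated group are listed, with folds of 102 to 131. Cd274 had a higher level than any single entry of the other members in both stimulated groups, while the 4 Cd40 entries with both treatments sum to 347.

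Slamf8, the SLAM family receptor gene, lay at 0.253, 0.244, 0.247 and 0.148 rebuilt FPKM in the parental untreated, parental doxycycline, construct untreated and construct doxycycline groups. It stood at 117 with interferon-gamma and at 204 with both treatments. The gene thus went from well under 1 FPKM to a level below, but of the same order as, that of Cd274. In the authors' deposited table the rise was 472-fold without doxycycline and 1380-fold with it (q = 0.000387 for each). The larger fold with doxycycline combines a higher stimulated level with a lower unstimulated level, and the unstimulated levels are small. With 1 FPKM added to each level the rises are 94.4-fold and 179-fold.

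Cd40 was read through its entry with the highest level, Cd40-203. This entry lay at 1.08, 1.61, 1.26 and 1.27 rebuilt FPKM in the 4 unstimulated groups, in the order parental untreated, parental doxycycline, construct untreated and construct doxycycline. It stood at 81.3 with interferon-gamma and 210 with both treatments. The unstimulated groups lay within 1.49-fold of each other, and no pair of them is listed. The rise was 64.4-fold without doxycycline and 166-fold with it in the authors' deposited table (q = 0.000387 for each).

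Pdcd1, the PD-1 gene, had the smallest response of the 4. Its levels were 0.0808 rebuilt FPKM in untreated parental cells and 0.0825 with doxycycline, then 0.698 in untreated construct cells, 1.14 with doxycycline, 3.80 with interferon-gamma and 6.63 with both. Interferon-gamma raised it 5.45-fold without doxycycline and 5.82-fold with it in the authors' deposited table (q = 0.000387 for each). At its highest level Pdcd1 was still low beside Cd274, the gene of its ligand, at 233 rebuilt FPKM in the same group.

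Cd28 has no row with either stimulated group, so its level with interferon-gamma is not known. A level within 2-fold of untreated construct cells would lie at or below 0.231 rebuilt FPKM, and a level within 2-fold of untreated parental cells at or above 2.03. No level meets both conditions, so at least 1 of these rows is missing for a reason other than a fold under 2. The table does not say which.

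**Figure D2:**
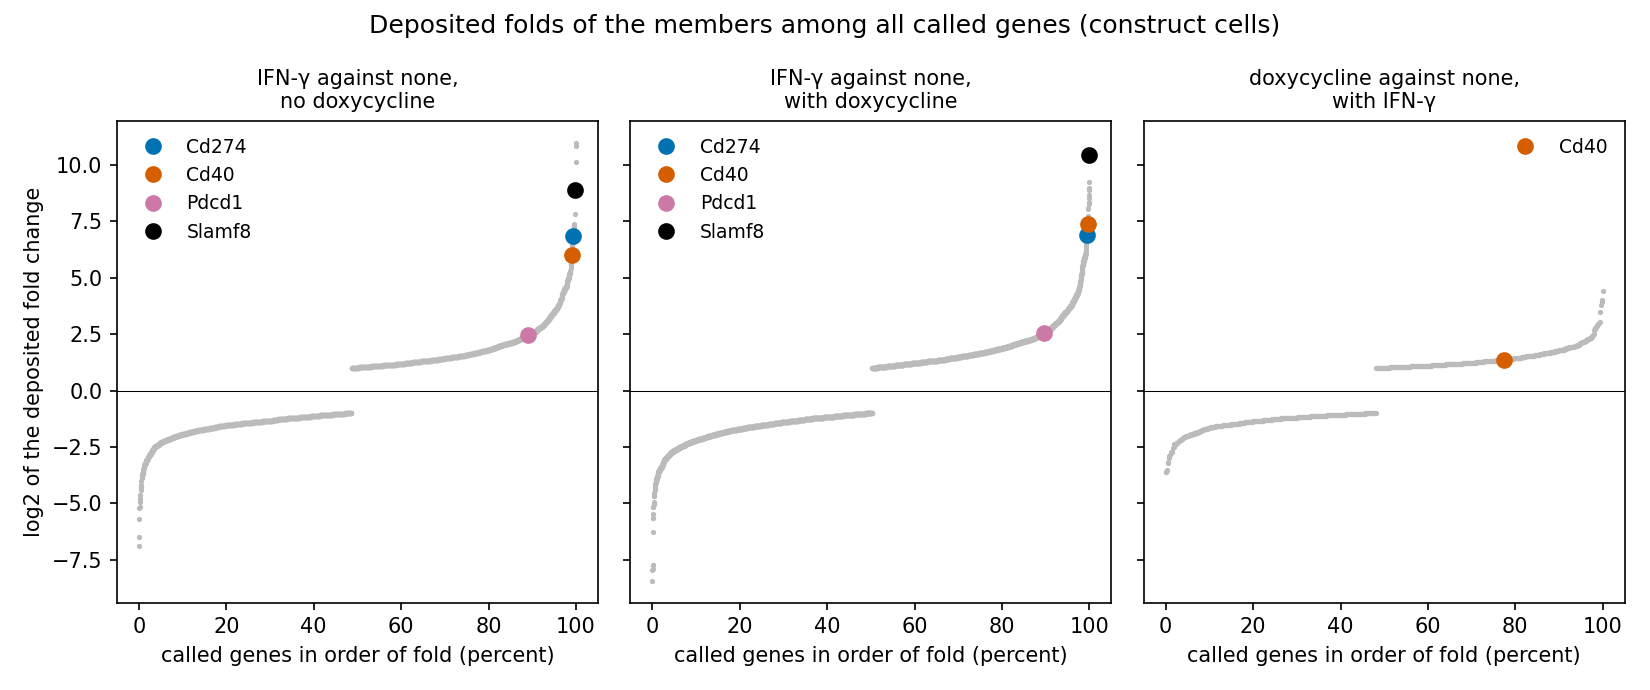
The log2 of the authors' deposited fold (vertical axis) is plotted for every called gene in order of fold (horizontal axis, percent of called genes) in 3 comparisons within construct cells, with called members in colour. Slamf8, Cd274 and Cd40 sit at the upper end of both interferon-gamma comparisons, Pdcd1 lies lower, and Cd40 is the called member in the comparison of doxycycline in stimulated cells; the gap between -1 and 1 is the table's 2-fold limit.

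Doxycycline, which induces CITED1, raised Cd40 in interferon-gamma-stimulated construct cells and called no other member, where 6.84% of the named genes were called higher and 6.34% lower. Cd40-203 went from 81.3 to 210 rebuilt FPKM, a 2.59-fold rise in the authors' deposited table (q = 0.000387). This placed Cd40 at 160 of the 373 genes called higher. No parental cells with interferon-gamma are among the groups, so doxycycline itself and CITED1 cannot be told apart in stimulated cells. In unstimulated parental cells the ratio with doxycycline was 1.49 for Cd40-203, without a row. The ratio of both treatments to interferon-gamma alone was 1.75 for Slamf8, 1.74 for Pdcd1 and 1.15 for Cd274, all under the table's 2-fold limit and without a q. All 4 members with levels in these groups were thus higher with both treatments, of which 1 was called. Whether the Cd40 change differs from that of the other members cannot be tested without values per sample. Of the macrophage markers Fcgr1 and Cd86 were also higher in the authors' deposited table, by 3.13-fold and 2.67-fold, and of the dendritic cell markers Itgax and Xcr1, by 2.42-fold and 2.68-fold. Their part in the Cd40 change was not tested.

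All 4 Cd40 entries were called in this comparison and rose by nearly the same factor. Cd40-201 went from 17.1 to 47.6 rebuilt FPKM, Cd40-202 from 11.01 to 30.2 and Cd40-207 from 21.4 to 59.0. Their folds in the authors' deposited table were 2.78, 2.75 and 2.76, with a q of 0.000387 for Cd40-201 and Cd40-202 and of 0.00912 for Cd40-207. Summed over the entries the level rose from 131 to 347 rebuilt FPKM, by 2.66-fold. The share of Cd40-203 in that sum was 62.2% without and 60.6% with doxycycline, and that of the full-length Cd40-201 was 13.1% and 13.7%. FPKM divides by length, and weighting each entry by its annotated length gives Cd40-203 a share of 37.3% without and 35.7% with doxycycline. On that scale Cd40-201 takes 35.1% and 36.1%. Reads in shared exons are divided among entries by the authors' software, so the split between entries is an estimate and their folds are not independent.

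**Figure D3:**
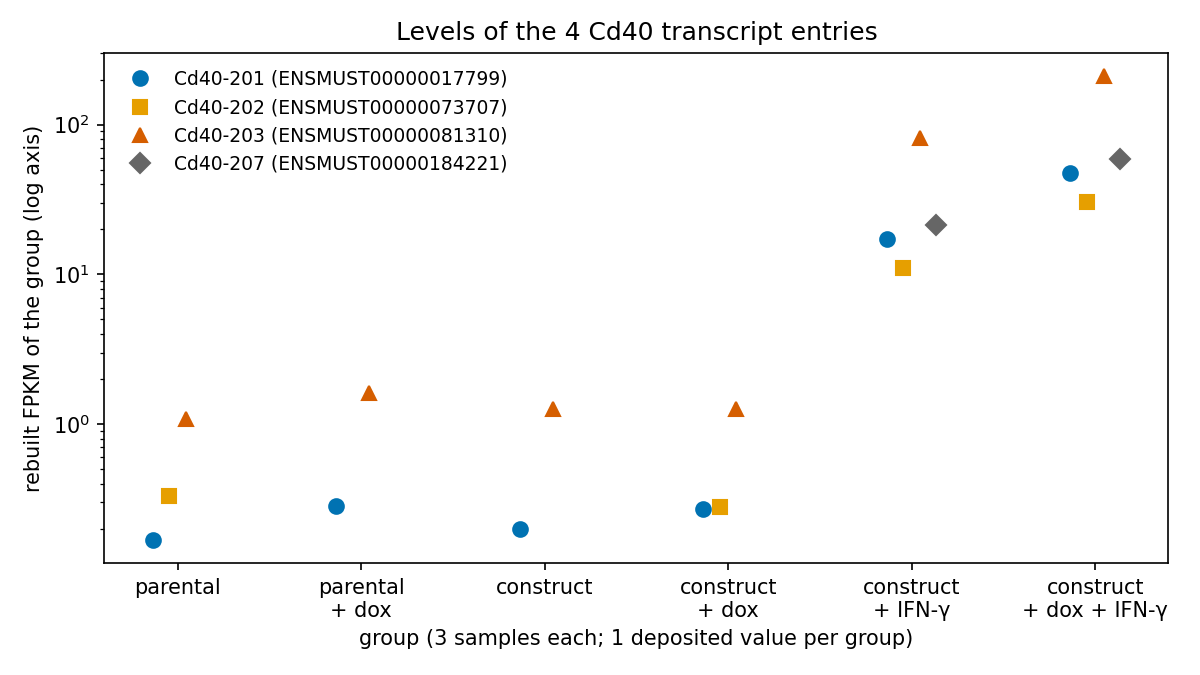
Rebuilt FPKM (log axis) of the 4 Cd40 transcript entries in the 6 groups, 1 deposited group value per point, shifted sideways to separate them. All 4 entries are higher with both treatments than with interferon-gamma alone, Cd40-203 being highest at 210, and a missing point means that no listed pair gives the level.

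With interferon-gamma, Cd40-201 rose 86.4-fold against untreated construct cells in the authors' deposited table. With both treatments it rose 176-fold there against construct cells with doxycycline alone. Cd40-202 is listed with doxycycline, at 108-fold, and its level in untreated construct cells is not given by any listed pair. Cd40-207 is listed in no pair with an unstimulated group. The ratio of the interferon-gamma fold with doxycycline to that without was 2.58 for Cd40-203, 2.03 for Cd40-201, 2.92 for Slamf8, 1.07 for Pdcd1 and 1.02 for Cd274. With 1 FPKM added to each level these ratios were 2.56, 2.53, 1.89, 1.26 and 1.06. Cd40 and Slamf8 thus had larger interferon-gamma folds with doxycycline and Cd274 nearly the same one, as a description of group values in which doxycycline and CITED1 cannot be told apart.

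In unstimulated construct cells doxycycline called 0 of the 5 members, where 0.403% of the named genes were called in either direction. The ratio of doxycycline to no treatment was 1.00 for Cd40-203, 1.10 for Cd28, 1.12 for Cd274, 1.63 for Pdcd1 and 0.599 for Slamf8. Doxycycline in parental cells, the control for the inducer, also called 0 of the 5, with 0.898% of the named genes called. There the ratios were 0.937 for Cd274, 0.965 for Slamf8, 1.02 for Pdcd1, 1.13 for Cd28 and 1.49 for Cd40-203. The count of 0 rests on the authors' Cuffdiff calls, for which no unadjusted p was used here, and a ratio under 2 is not shown to be no change.

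The 2 receptor genes known mainly from T cells, Cd28 and Pdcd1, separated the construct line from the parental line in opposite directions. Cd28 stood at 4.06 rebuilt FPKM in untreated parental cells and 4.59 with doxycycline, and at 0.115 and 0.127 in construct cells. It was 35.2-fold lower in construct cells without inducer and 36.1-fold lower with doxycycline in both lines, in the authors' deposited table (q = 0.000387 for each). Among the named genes, 2.77% and 3.17% were called lower in these comparisons, and Cd28 ranked at 3 of 151 and 5 of 173. All 4 pairs of an unstimulated construct group with a parental group list Cd28, at 31.9-fold to 39.8-fold lower.

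Pdcd1 was 8.64-fold higher in construct cells without inducer (q = 0.00773) and 13.8-fold higher with doxycycline in both lines (q = 0.00272) in the authors' deposited table. Of the named genes 1.72% and 2.44% were called higher there, and Pdcd1 ranked at 6 of 94 and 4 of 133. Without inducer neither line reaches 1 FPKM, so a minimum of 1 FPKM in either group removes that call. Both folds rest on parental levels under 0.1 FPKM: with 1 FPKM added to each level they become 1.57-fold and 1.98-fold, under the table's limit. Cd274, Cd40 and Slamf8 have no row in either comparison, with construct to parental ratios without inducer of 0.904, 1.17 (Cd40-203) and 0.975. With doxycycline in both lines the ratios were 1.08, 0.785 and 0.606, so that of Cd40-203 lay on the other side of 1 and that of Slamf8 was lower. The lines differ in transduction and in whatever the construct expresses without inducer, and these cannot be told apart. The macrophage marker Adgre1 was also lower in construct cells, 2.34-fold both without inducer and with doxycycline in the authors' deposited table. The dendritic cell marker Itgax was higher in construct cells with doxycycline in both lines, 2.42-fold there. Their part in these values was not tested.

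The other genes of costimulation and its signalling were counted over 6 lists with 87 gene symbols, 82 of them no members. Some symbols are alternative names of the same gene, such as Cd244 and Cd244a, so list sizes count symbols. Of these 82, 34 are listed in some pair. With interferon-gamma alone 22 were higher and 5 lower, and with interferon-gamma in doxycycline-treated cells 21 were higher and 4 lower. Over all named genes 1404 were higher and 1334 lower in the former comparison, and 1837 higher and 1854 lower in the latter. With members included, genes listed in some pair were 8 of 14 in the B7 and CD28 family and 4 of 16 in the TNF superfamily. They were 4 of 13 in the SLAM list, 9 of 22 other checkpoints, 8 of 12 for CD40 signalling and 6 of 10 for PD-1 and PD-L1. Shares over all named genes count only listed genes, so the list sizes given below are not a like base. The median log2 fold of the genes called among these 82 was 1.59 and 1.99, beside 1.01 and -1 over all called genes, whose folds fall into separate rises and falls. Levels were also rescaled to a median log2 ratio of 0. That median was taken over entries with levels in both groups and at least 1 FPKM in either, 3846 and 4706 entries. All of these entries had passed the table's filter in some pair. The shifts of 0.65 and 1.02 therefore do not describe all genes. When rescaled, the share of all calls that were higher changed from 51.3% to 33.7% and from 49.8% to 28.0%. On that scale 9 of the list genes called higher without doxycycline fell under 2-fold, among them Cd80, Slamf9, Havcr2, Cmtm6 and Irf2. With doxycycline 8 did, among them Cd80, Icosl, Birc3, Cmtm6 and Irf2, while the members stayed called in both. The list genes called lower stayed called by construction, because shifts of this sign only enlarge a fall. Nectin2 is not counted among these 8. With doxycycline its entry with the highest summed FPKM fell to 1.42-fold when rescaled, but another entry stayed called.

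Of the B7 and CD28 family, 14 genes, 4 were higher and 1 lower in each interferon-gamma comparison, Cd274 and Pdcd1 included. Icosl, the ligand of the costimulatory receptor ICOS, rose 3.81-fold without and 3.72-fold with doxycycline in the authors' deposited table. Cd276, the gene of B7-H3, fell from 12.0 to 4.46 rebuilt FPKM without and from 13.3 to 1.59 with doxycycline. Cd80 was the other gene that rose. Cd86 has no row in either comparison, and its level in unstimulated construct cells is not known. It stood at 0.0452 rebuilt FPKM in untreated parental cells, and its levels in the stimulated groups are given below. Ctla4, Icos, Btla, Pdcd1lg2 and Vtcn1 have no row in any pair.

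Of 16 TNF superfamily genes, Cd40, Tnfsf18 and Tnfrsf14 were higher and Tnfsf14 lower in both interferon-gamma comparisons. Tnfsf18, the ligand of the receptor GITR, rose 12.4-fold without and 20.6-fold with doxycycline in the authors' deposited table. Tnfrsf14, the gene of the receptor HVEM, rose 3.52-fold without and 6.49-fold with doxycycline there, read from different entries. Among 13 SLAM family and adaptor genes, Slamf8 and Slamf9 were higher and none lower, with Slamf9 at 2.39 and 6.23 rebuilt FPKM without doxycycline and at 2.42 and 9.85 with it. In the SLAM family the response of Slamf8 without doxycycline thus stood at 472-fold beside 2.6-fold for Slamf9 in the authors' deposited table. The response of Slamf7 is not known, because listed pairs give its level in the stimulated groups only.

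Downstream of CD40, 6 of 12 genes were higher and none lower in each interferon-gamma comparison. Traf1, an adaptor of TNF receptors, went from 1.95 to 20.8 rebuilt FPKM without and from 1.32 to 45.2 with doxycycline. Nfkb2, the subunit gene of the alternative NF-kB pathway, rose 4.64-fold without and 5.15-fold with doxycycline in the authors' deposited table. Tank, a TRAF-binding regulator, rose 3.84-fold without and 7.15-fold with doxycycline there. Birc3, a ubiquitin ligase of this pathway, rose 4.1-fold without and 3.96-fold with doxycycline there. Of 10 genes of PD-1 and PD-L1 signalling and turnover, 6 were higher without doxycycline and 5 with it, and none lower. Jak2, a kinase of the interferon-gamma receptor, rose 8.15-fold without and 12.2-fold with doxycycline in the authors' deposited table. Cmtm6, which keeps PD-L1 at the cell surface, rose 2.29-fold without and 3.19-fold with doxycycline in the authors' deposited table, and 1.46-fold and 1.58-fold when rescaled. Stat3, a cytokine-activated transcription factor, rose 5.21-fold without and 6.77-fold with doxycycline in the authors' deposited table. Irf2, an interferon regulatory factor, rose 3.01-fold without and 3.14-fold with doxycycline there, and 1.92-fold and 1.55-fold when rescaled.

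Other checkpoint genes went both ways, with 5 higher and 3 lower of 22 without doxycycline, and 5 higher and 2 lower with it. Cd33, a receptor for sialic acid, fell from 31.3 to 0.871 rebuilt FPKM without and from 35.0 to 0.167 with doxycycline. Siglece, of the same family, fell 14.4-fold without doxycycline in the authors' deposited table. Among the rises were Pvr, a ligand of the checkpoint receptor TIGIT, at 4.15-fold without and 4.76-fold with doxycycline, and Nectin2, another ligand of it, at 5.27-fold without doxycycline, all from the authors' deposited table. With doxycycline Havcr2, the gene of TIM-3, rose from 13.2 to 83.1 rebuilt FPKM and Cd47, the signal against phagocytosis, from 19.8 to 113.

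**Figure D4:**
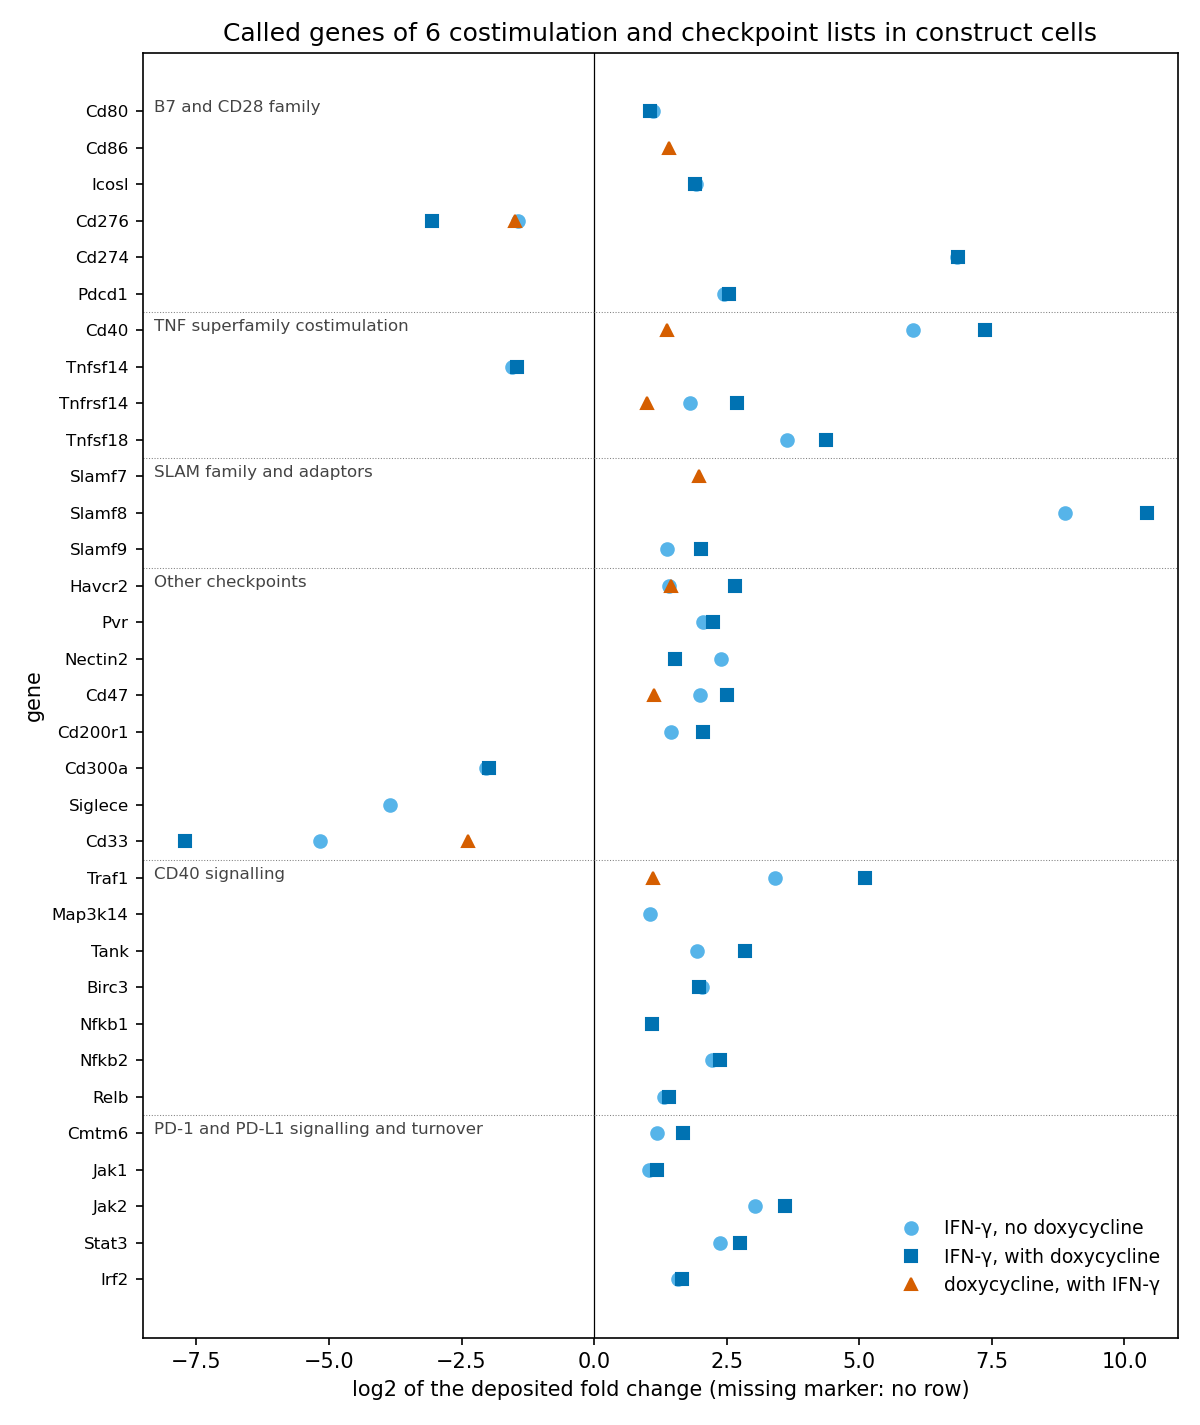
The log2 of the authors' deposited fold (horizontal axis) for called genes of the 6 lists (vertical axis) in 3 comparisons within construct cells; a missing marker means no row. Most points lie to the right, with Slamf8, Cd40 and Cd274 farthest, while Cd276, Tnfsf14, Cd300a, Siglece and Cd33 lie to the left.

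With doxycycline in stimulated construct cells, 6 of the 82 other genes were higher and 2 lower, beside 373 and 346 over all named genes. Cd86, a B7 ligand of CD28, went from 20.9 to 55.7 rebuilt FPKM, a 2.67-fold rise in the authors' deposited table. Slamf7, a SLAM family receptor, rose 3.92-fold, Havcr2 2.73-fold and Cd47, read from another entry than above, 2.2-fold there. Tnfrsf14 rose 2-fold, at the table's limit and under it when rescaled, and Traf1 2.17-fold in the authors' deposited table. Cd276 fell 2.8-fold there and Cd33 was the other gene that fell. In unstimulated construct cells doxycycline called 0 of the 82. Between the lines Cd84, a SLAM family receptor, was lower in construct cells, from 1.63 to 0.0357 rebuilt FPKM without inducer. With doxycycline in both lines Cd84 was lower, from 2.09 to 0.0574 rebuilt FPKM, and Slamf9, from 5.31 to 2.42, while Cd80 was higher, from 0.690 to 1.85.

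The genes whose pattern over groups was most like each member were found by the root mean square difference of log2 rebuilt levels, each centred on its mean. This compared 2443 named genes over 6 groups, or 3013 over 4 groups for Cd28. Nearest to Cd274 were Gbp3, Il12rb1, Gbp7, Cd40 and Calhm6, at differences of 0.24, 0.29, 0.34, 0.40 and 0.44 log2 units. Nearest to Cd40 was Cd274 at 0.40, followed by Gbp3, Scimp, Notch1 and Bcl2a1a at 0.42 to 0.53. Slamf8 had fewer close neighbours, with the nearest symbols Gm12250, Socs1, Cfb, Xcr1 and Ifi209 at 0.60 to 1.08. Nearest to Pdcd1 were Zdhhc23, Emp2, Angptl2, Apol9a and Zfp467, at 0.41 to 0.83. Nearest to Cd28 were Cd84 at 0.23, then Igf2bp1, Psma8, Svil and Rtl8b at 0.36 to 0.53. Pdcd1 stood at rank 3011 of 3013 in likeness to Cd28 over the 4 unstimulated groups, where they differ in opposite directions between the lines. These distances are over group values that share libraries and describe likeness only.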

How the data were processed

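The members and gene lists were chosen with earlier results of these data known. Per the labels, 18 RNA samples in 6 groups of 3 were made into poly(A)-selected directional libraries; the labels do not say whether these were grown separately, so the authors' q-values may measure technical spread only. Per the submitters' processing notes, the tools were Cuffdiff 2.2.1, edgeR, featureCounts, STAR 2.5.3a and FastQC 0.11.5, with no role for any. Build and annotation were not given in the sources used here, and depth is unknown. Per the file headers, the authors' deposited table gives a linear fold change as a ratio, the summed FPKM of a pair of groups and a q-value, an adjusted p-value over tests the deposited file does not name. The table's 112230 rows had been filtered to 2-fold and a q of 0.05. Of these, 77406 name groups outside the 6 and were not used, leaving 34824. The planned tests on values per sample could not be made, so calls are the authors'.

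The lower level of a pair was computed as summed FPKM divided by 1 plus the fold. Levels over pairs were combined by the median (pandas 2.3.3). A gene was called if all its listed entries went the same way and valued by the entry with the highest summed FPKM in that comparison. Shares of genes called are over the 5455 genes listed in some pair, not over genes tested. Transcripts were matched by identifier to GENCODE M21. By rule, all rows of the members and up to 4 called genes per list and comparison, those with the largest fold that reach 1 FPKM in one of both groups, were given values. The exception is that 1 called list gene is counted but is not reported here by name or plotted. Further values and the names of genes without a row were chosen after the values were seen. Rebuilding and counting were tested on simulated data for interferon-gamma without doxycycline (2000 genes, 200 changed by 3-fold or 8-fold, without replicates), where 100% were recovered and 0 unchanged genes were called. The simulated levels had no noise, and unchanged genes had equal levels in all groups. The outcome therefore checks the computation only and says nothing on false or missed calls in the data. Alternatives were a q of 0.01, a minimum of 1 FPKM, added 0.1 or 1 FPKM, rescaling, a 4-fold limit and counting entries.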

Additional observations from a re-analysis of the deposited data

How the results depend on the processing

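Of the 19 deposited folds of members in the 7 comparisons, each under 4 alternatives, 74 of 76 values kept their direction and stayed at 2-fold or more and 0 reversed. The other 2 are Pdcd1 between the lines with 1 FPKM added, as given above. These alternatives were the ratio of rebuilt levels, 0.1 or 1 FPKM added, and rescaling. The ratio of rebuilt levels repeats the deposited fold apart from rounding. Adding the same FPKM to both levels cannot reverse a direction, so only rescaling could have done so. A minimum of 1 FPKM also ended the Pdcd1 call without inducer, leaving 1 of 2 members. Counts of members and list genes together moved by more than 1.5 times in these cases. At 4-fold or more, 17 of 31 genes were called with interferon-gamma alone, 19 of 29 with interferon-gamma in doxycycline-treated cells, 1 of 9 with doxycycline in stimulated cells, where Cd40 lost its call, and 3 of 5 between the lines with doxycycline. With 1 FPKM added, 2 of those 5 were called, and counting entries gave 44 in place of 29 with interferon-gamma in doxycycline-treated cells. Fewer calls follow from a higher limit by construction. Rescaling left 22 of 31 and 21 of 29 called in the interferon-gamma comparisons, 17 of 26 and 17 of 25 of those higher, and kept the members called there. No paired analysis was possible because the table holds no value per sample, and no replicate could be left out for the same reason. Depth is unknown, so levels under 1 FPKM, which include Slamf8 without interferon-gamma, Cd28 in construct cells and Pdcd1 in parental cells, carry an error that cannot be stated.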
